A study of Homo sapiens with 6 samples.

Results

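A group of 41 genes of glycolysis and of the response to low oxygen was examined, out of 60612 genes listed for each library. The genes were chosen by name and comprised 6 genes of the hypoxia-inducible factors (HIF) and their oxygen sensors, 12 further HIF targets, 4 glucose and lactate transporters, 17 glycolytic enzymes and 2 regulators of fructose bisphosphate. Each symbol matched 1 Ensembl gene. All libraries came from HCT116, an established human colorectal carcinoma cell line. In 3 libraries the cells had been infected with LV-NC, a negative control lentivirus, and in 3 with LV-SNORA28, a lentivirus that overexpresses the small nucleolar RNA SNORA28. RNA was collected 72 h after infection, and the study's methods describe the virus as a GV235 vector with puromycin selection of infected cells. The labels name no other agent, no oxygen level and no clone. They number the replicates without saying whether the cultures were separate, so p-values measure only the spread between these libraries, which may be technical.

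HIF is a transcription factor made of an oxygen-regulated alpha subunit (HIF1A or EPAS1) and a constant partner, ARNT. When oxygen is plentiful, the EGLN prolyl hydroxylases mark the alpha subunit and VHL directs its destruction, so that HIF activity is set largely at the protein level, which RNA sequencing does not measure. When oxygen falls, the factor accumulates and raises genes for glucose uptake, glycolysis, lactate export and blood vessel growth. Colorectal carcinoma cells are known to use glycolysis heavily even where oxygen is present.

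HIF recognises the short core motif ACGTG or GCGTG. The promoter of PGK1 is a textbook HIF target, and SLC2A1 is one of the glucose uptake genes that HIF raises. Why either gene differed between the groups was not tested. The promoters of these genes, the transporter and the enzyme with the smallest p-values in each direction, are shown. They were chosen partly because they differ in this motif. Each is the 250 bases before the RefSeq start on GRCh38.p14, written 5′ to 3′ on the strand of the gene: chr1:42958869-42959118, minus strand, for SLC2A1, and chrX:78103998-78104247, plus strand, for PGK1. Capitals mark the motif on either strand, where the opposite strand reads CACGT or CACGC.
SLC2A1: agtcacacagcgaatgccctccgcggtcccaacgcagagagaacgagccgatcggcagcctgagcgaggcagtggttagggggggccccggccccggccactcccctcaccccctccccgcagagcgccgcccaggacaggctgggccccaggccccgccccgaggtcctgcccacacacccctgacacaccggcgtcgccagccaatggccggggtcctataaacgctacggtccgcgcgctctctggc
PGK1: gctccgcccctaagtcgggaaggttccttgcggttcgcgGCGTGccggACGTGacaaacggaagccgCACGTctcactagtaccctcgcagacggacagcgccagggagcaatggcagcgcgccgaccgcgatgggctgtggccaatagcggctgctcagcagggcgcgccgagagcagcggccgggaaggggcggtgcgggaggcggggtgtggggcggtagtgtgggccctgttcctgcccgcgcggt
The PGK1 window held 3 matches, starting 211, 202 and 183 bases before the start, and the SLC2A1 window held 0. At least 1 match was found in 43.2% of 35116 such windows of all genes and at least 3 in 7.76%. Of 63 windows of the listed genes, 37 held a match (58.7%), and 28 of the 35 listed genes with a window had a match in any of theirs. The count per gene was not made over all genes and cannot be read against the share of windows. Genes with several windows have more chances of a match. A palindromic CACGTG counts on both strands. A match of letters is not a binding site, and the lack of one refers to this window only. BNIP3L, NDRG1, SLC16A1, SLC2A3, VEGFA and VHL had no entry.

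Values are FPKM, fragments per kilobase of transcript, scaled to the mapped total of the library, and can be compared between genes because they are scaled to length. The number of reads behind them was not given, so the depth is unknown. SNORA28 was listed at 0.92, 0 and 0.64 FPKM with LV-NC and at 15.01, 13.66 and 15.20 FPKM with LV-SNORA28. Because the RNA was poly(A)-selected, these values need not measure the mature small RNA. Which transcript gave the reads was not tested. Of the markers of the labelled cell type, EPCAM, KRT8, KRT18 and KRT19 carried most of a summed level of 762.5 to 850.3 FPKM, and KRT20 (at most 0.39 FPKM) and VIL1 (at most 0.04 FPKM) were near 0. Summed markers of blood cells (3 genes) and endothelial cells (3 genes) were at most 0.27 and 0.12 FPKM, and of the 3 fibroblast markers only COL1A1 was above 0, at 3.16 to 4.46 FPKM. The mitochondrial chromosome held 44.4% ± 2.83 (SD, n = 3) of all FPKM with LV-NC and 37.3% ± 1.25 (SD, n = 3) with LV-SNORA28, and with the libraries rescaled to the other genes SLC2A1, SLC2A3 and PGK1 remained called while PFKM did not.

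Glucose transporter transcripts and, less firmly, a pair of enzyme transcripts differed between the groups. SLC2A1 and SLC2A3, which encode the glucose transporters GLUT1 and GLUT3, were lower in LV-SNORA28 (log2 fold changes of -0.66 and -0.63), whereas the glycolytic enzymes PGK1 and PFKM were slightly higher (0.34 and 0.27). Only SLC2A1 passed the test under all 16 alternative settings of the fit. SLC2A3 passed in 10 of 15, PGK1 in 7 of 16 and PFKM in 2 of 16. Among the listed genes that could be tested, 0 of 5 HIF factors and oxygen sensors passed the test. The same held for 0 of the 9 genes listed as other HIF targets. This does not extend to all HIF targets, since 6 of 27 in a further list were called higher, as described below with their limits. A gene was called when limma, fitted to log2(FPKM + 1) of the 12076 genes that averaged 1 FPKM or more, gave a Benjamini-Hochberg adjusted p below 0.05.

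Of the 41 genes, 37 reached that level, and EGLN3, CA9, ANKRD37 and PDK1 did not. Calls were made for 4 of the 37 genes (10.8%), against 8.91% of all genes tested. In LV-SNORA28, 2 were higher (5.41%, against 6.81% of all genes tested) and 2 were lower (5.41%, against 2.10%). The total share called therefore lay near that of all genes tested. The median log2 fold change of the 37 genes was 0.06, below the 0.09 of all genes tested, and 26 of the 37 values were above 0, where 66.7% of all genes tested were. Between 4 and 9 of these signs turned with the scaling of the libraries, and those genes were not called.

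**Figure D1:**
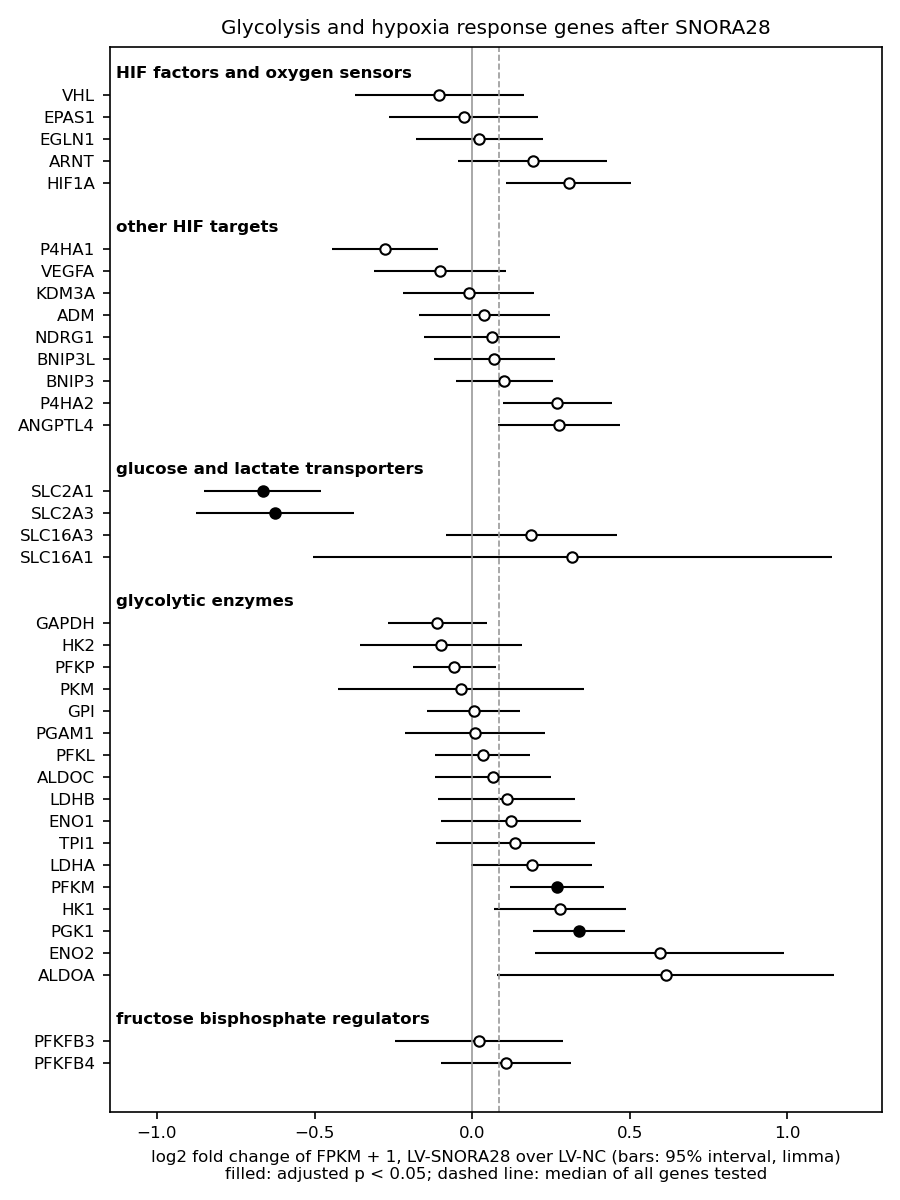
Log2 fold change of FPKM + 1 (LV-SNORA28 over LV-NC) for the 37 listed genes that reached the filter, ordered within each role. Points are limma estimates from 3 libraries a group, bars are 95% confidence intervals, filled points have an adjusted p below 0.05 and the dashed line marks 0.09, the median of all genes tested. SLC2A1 and SLC2A3 lie farthest below 0, at -0.66 and -0.63.

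SLC2A1 (ENSG00000117394; GRCh38 chromosome 1, 42925353 to 42958893), the main basal glucose transporter of many cells, had 21.20, 19.41 and 20.98 FPKM with LV-NC. It had 13.52, 12.76 and 11.51 FPKM with LV-SNORA28. All LV-SNORA28 libraries lay well below all LV-NC libraries. The mean was 20.5 ± 0.976 FPKM (SD, n = 3) against 12.6 ± 1.02 FPKM (SD, n = 3). The fitted log2 fold change was -0.66 (SE 0.08, adjusted p = 0.00792 in limma). SLC2A1 stood at rank 18 by fold change among 144 protein-coding genes called lower. It was the only one of the 4 called genes to remain called under each of the 16 alternative settings tried, with log2 fold changes between -0.76 and -0.61 and adjusted p-values from 0.00489 to 0.0424. In bulk RNA, a lower level in every cell and fewer cells that express the gene cannot be told apart.

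SLC2A3 (ENSG00000059804; chromosome 12, 7919230 to 8019007), a high-affinity glucose transporter best known from neurons, was expressed at a much lower level. It had 2.63, 2.28 and 2.75 FPKM with LV-NC and 1.31, 1.08 and 1.53 FPKM with LV-SNORA28. The groups did not overlap. The fitted log2 fold change was -0.63 (SE 0.10, adjusted p = 0.0199 in limma), and SLC2A3 stood at rank 25 of the 144 genes. The call was lost, with adjusted p-values from 0.0539 to 0.0678, without a filter on low values and when LV-NC replicate 1, LV-NC replicate 3, LV-SNORA28 replicate 1 or LV-SNORA28 replicate 2 was left out. SLC2A14, a near copy that could share its reads, was listed at 0 to 0.03 FPKM. Its 3 pseudogenes together averaged 0.283 FPKM with LV-NC and 0.287 FPKM with LV-SNORA28, which was 11.1% and 21.9% of SLC2A3. SLC2A1 made up 89.0% ± 0.539 (SD, n = 3) of the summed FPKM of both transporters with LV-NC and 90.5% ± 2.04 (SD, n = 3) with LV-SNORA28, and these shares overlapped.

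The lactate transporters showed no such difference. SLC16A3, which encodes the lactate exporter MCT4, had 24.17, 19.90 and 27.46 FPKM with LV-NC and 26.83, 27.48 and 26.91 FPKM with LV-SNORA28. The ranges overlapped, and the adjusted p was 0.329 in limma. SLC16A1, which encodes MCT1, had 8.71, 22.88 and 22.96 FPKM with LV-NC and 20.56, 20.31 and 22.40 FPKM with LV-SNORA28. LV-NC replicate 1 stood far below the other 5 libraries. The log2 fold change was 0.32 with a 95% interval of -0.51 to 1.14, and it was -0.12 without that library.

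**Figure D2:**
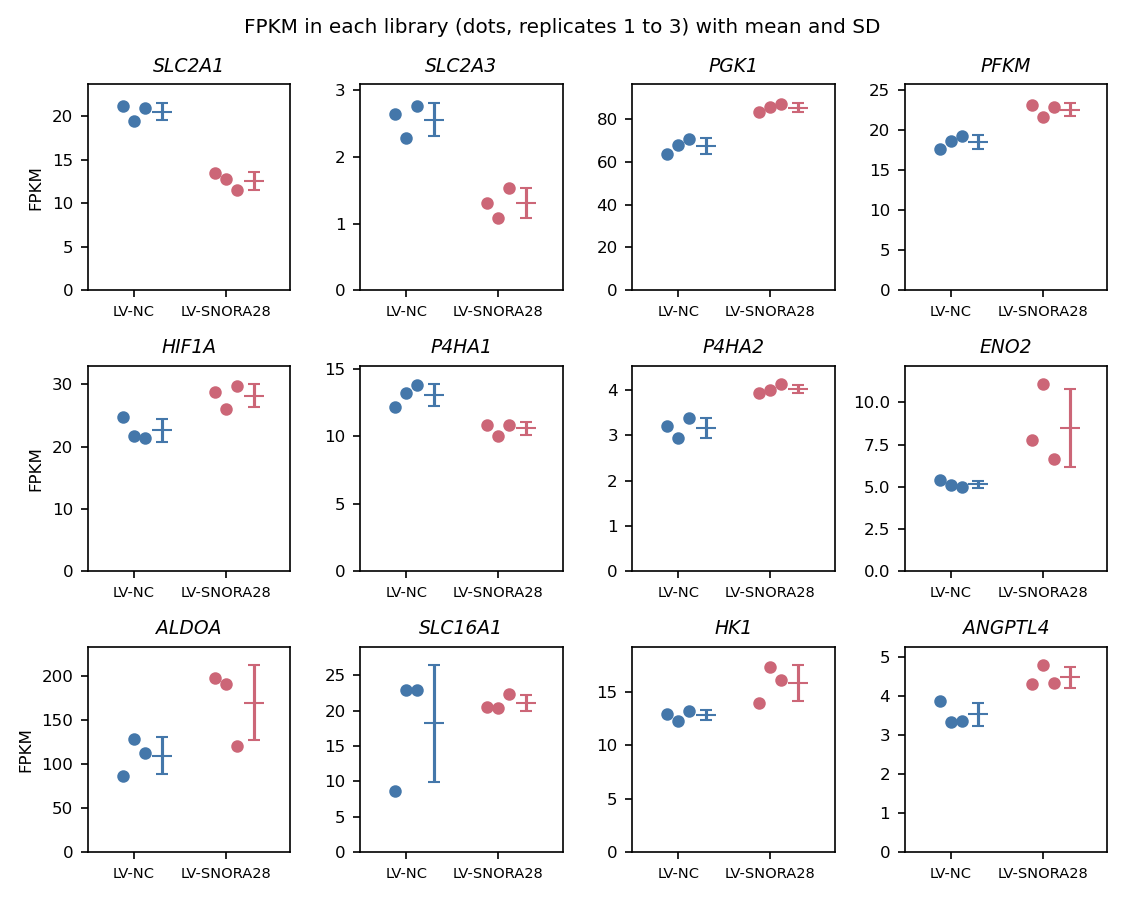
FPKM of 12 listed genes in each library. Dots are the replicates in the order 1 to 3, the bar beside them is the mean with the SD, and each axis starts at 0. SLC2A1, SLC2A3 and P4HA1 lie lower in all LV-SNORA28 libraries, while SLC16A1 and ALDOA each have a library far from the rest of its group.

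All 17 glycolytic enzymes reached the filter. PGK1 and PFKM were called higher and 0 were called lower, so that 11.8% were called higher, against 6.81% of all genes tested, where 2.10% were called lower. Log2 fold changes were above 0 for 13 of the 17 enzymes, although GPI, PFKL and ALDOC turned below 0 under quantile normalization and median centring, and PGAM1 under the latter. Of all genes tested, 66.7% were above 0. The median log2 fold change of the enzymes was 0.11, and 5 had an unadjusted p below 0.05. The share of all genes tested with such a p was not computed. It was at least the 8.91% called, so counts of unadjusted p-values alone, here and below, have no background to be read against. Groups did not overlap for 5 enzymes that were higher in LV-SNORA28 (HK1, PFKM, PGK1, ENO2 and LDHA), which was 29.4% of the 17 enzymes against 27.0% of all genes tested. They did not overlap for 1 enzyme that was lower (GAPDH), which was 5.88%, against 8.16%.

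PGK1 (ENSG00000102144; chromosome X, 77910739 to 78129295) encodes phosphoglycerate kinase, which makes the first ATP that glycolysis gains. It had 63.40, 67.63 and 70.68 FPKM with LV-NC and 83.01, 85.54 and 87.03 FPKM with LV-SNORA28. Every LV-SNORA28 library lay above every LV-NC library. Limma gave a log2 fold change of 0.34 (SE 0.06, adjusted p = 0.0251), and PGK1 stood at rank 658 by fold change of 772 protein-coding genes called higher. It remained called in 7 of 16 alternatives, and the adjusted p ranged over them from 0.0194 to 0.143. Among the fits that left out a library, the call held only without LV-NC replicate 3. Its annotated span overlaps ATP7A on the same strand, which had 1.11 and 1.22 FPKM on average in LV-NC and LV-SNORA28.

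PFKM (ENSG00000152556; chromosome 12, 48105139 to 48146404) encodes the muscle type of phosphofructokinase, the enzyme of the committed step. It had 17.64, 18.66 and 19.31 FPKM with LV-NC and 23.15, 21.63 and 22.88 FPKM with LV-SNORA28. The groups were apart, although the difference was small. The fitted log2 fold change was 0.27 (SE 0.06, adjusted p = 0.0468 in limma), just inside the threshold. PFKM was called in 2 of 16 alternatives, and its call was lost whichever library was left out, with adjusted p-values of up to 0.171 over the alternatives. Its paralogs PFKL (0.03) and PFKP (-0.06) had log2 fold changes near 0 and overlapping groups.

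ALDOA and ENO2 had the largest log2 fold changes among the enzymes but did not pass the test. ENO2, the neuronal type of enolase, had 5.40, 5.09 and 5.00 FPKM with LV-NC and 7.75, 11.07 and 6.62 FPKM with LV-SNORA28. The groups were apart, and LV-SNORA28 replicate 2 was the highest. The log2 fold change was 0.59 (SE 0.16, adjusted p = 0.0739 in limma). ENO2 overlaps LRRC23 on the same strand, which averaged 2.28 and 1.99 FPKM with LV-NC and LV-SNORA28.

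ALDOA (chromosome 16, 30064164 to 30070457), the main aldolase outside the liver, had 87.07, 128.65 and 112.94 FPKM with LV-NC and 197.63, 191.33 and 121.07 FPKM with LV-SNORA28. LV-SNORA28 replicate 3 lay within the range of LV-NC. Limma gave a log2 fold change of 0.61 (SE 0.22, adjusted p = 0.134). An annotated gene on the same strand, ENSG00000285043 (30053123 to 30070414), covers nearly all of ALDOA. It was listed at 43.15, 29.02 and 50.26 FPKM with LV-NC and at 14.80, 16.35 and 62.46 FPKM with LV-SNORA28, lowest in the libraries where ALDOA was highest. Summed over both genes, the values were 130.22, 157.67 and 163.20 FPKM with LV-NC and 212.43, 207.68 and 183.53 FPKM with LV-SNORA28, and the groups no longer overlapped. The log2 fold change of the sum was 0.42 (SE 0.11, adjusted p = 0.0567 in limma). The sum was formed after the values were seen, and the value of ALDOA alone is uncertain.

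Under a rule on size, a fold change above 1.5 and an unadjusted p below 0.05, ALDOA and ENO2 were higher and SLC2A1 and SLC2A3 lower, and PGK1 and PFKM did not pass. These were 2 of 37 genes in each direction, where 2.58% and 1.22% of all genes tested were higher and lower.

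The other enzymes were not called. HK1, the housekeeping hexokinase, had 12.90, 12.32 and 13.21 FPKM with LV-NC and 13.98, 17.31 and 16.12 FPKM with LV-SNORA28, with a log2 fold change of 0.28 (adjusted p = 0.0972 in limma). HK2, the hexokinase most often linked to tumours and to HIF, had 7.76, 7.43 and 9.90 FPKM with LV-NC and 7.43, 7.91 and 7.74 FPKM with LV-SNORA28, which overlapped. LDHA, which makes lactate from pyruvate, had 90.13, 90.43 and 86.07 FPKM with LV-NC and 90.63, 107.16 and 107.30 FPKM with LV-SNORA28, with an adjusted p of 0.186. The lowest LV-SNORA28 value of LDHA exceeded the highest LV-NC value by little. GPI, PFKL, ALDOC, TPI1, PGAM1, ENO1, PKM and LDHB had log2 fold changes from -0.03 (PKM) to 0.14 (TPI1), and all their groups overlapped. The 95% intervals were narrow for GPI (-0.14 to 0.15) and wide for PKM (-0.43 to 0.36), whose LV-NC values ran from 118.07 to 171.84 FPKM.

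GAPDH, which oxidises glyceraldehyde phosphate and is often used as a reference gene, was by far the most abundant enzyme. It had 2187.84, 2294.41 and 2298.77 FPKM with LV-NC and 2185.82, 2089.47 and 2005.47 FPKM with LV-SNORA28. The groups were separated only by the small gap between LV-NC replicate 1 and LV-SNORA28 replicate 1. The fitted log2 fold change was -0.11 (SE 0.07, adjusted p = 0.319 in limma). GAPDH held 58.0% ± 0.278 (SD, n = 3) of the summed FPKM of the 17 enzymes with LV-NC and 53.5% ± 0.288 (SD, n = 3) with LV-SNORA28. This share was computed after the values were seen, and it did not overlap between the groups.

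The summed FPKM of the 17 enzymes was 3898 ± 124 (SD, n = 3) with LV-NC and 3911 ± 175 (SD, n = 3) with LV-SNORA28, a difference smaller than the spread between libraries. Without GAPDH, the sums were 1567.8, 1660.6 and 1685.1 FPKM with LV-NC and 1892.6, 1836.6 and 1723.1 FPKM with LV-SNORA28. These sums did not overlap. They were not planned, they leave out the enzyme that was apart and lower, and they include ALDOA, whose value is uncertain. By step of the pathway, only the GAPDH step (0.926 times the LV-NC mean) and the phosphoglycerate kinase step (1.27 times) were apart between the groups. The aldolase step had the highest ratio, 1.51, but its groups overlapped, and the phosphofructokinase step had a ratio of 1.03. The aldolase value is uncertain, since it uses ALDOA without the gene that covers it. Summed with that gene, ALDOA did not overlap between the groups.

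**Figure D3:**
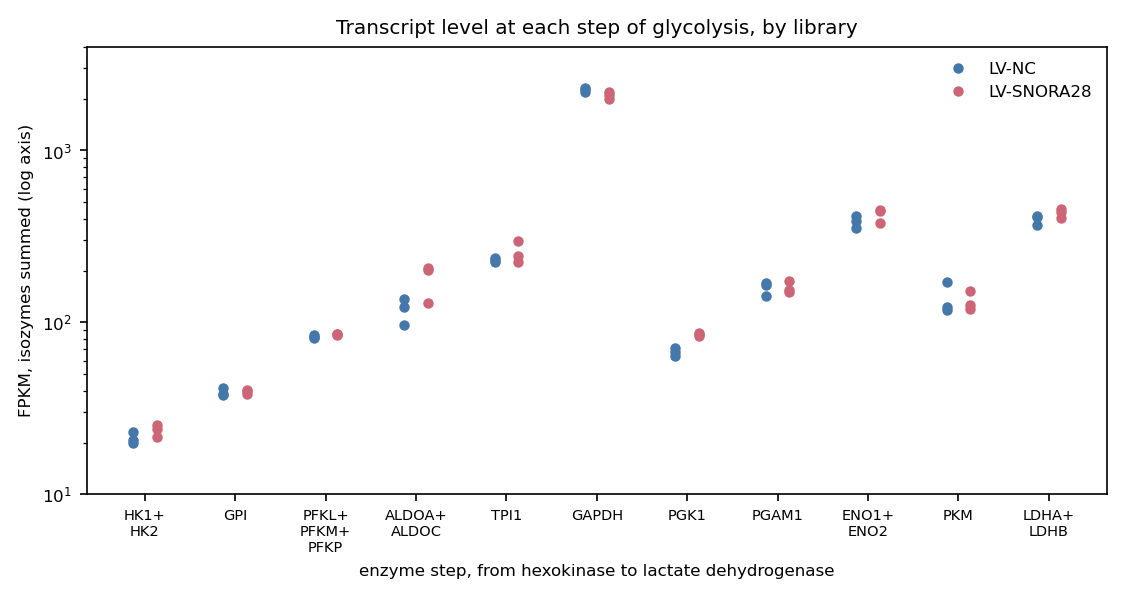
FPKM of each enzyme step of glycolysis, with isozymes summed, in order from hexokinase to lactate dehydrogenase. Dots are libraries and the vertical axis is logarithmic. GAPDH lies highest, hexokinase lies lowest, and the groups are apart at phosphoglycerate kinase and, by a small gap, at GAPDH.

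Of the 6 HIF factors and oxygen sensors, 5 reached the filter and 0 were called in limma, against 8.91% of all genes tested. Of these, 1 (HIF1A) had an unadjusted p below 0.05. HIF1A had 24.80, 21.67 and 21.33 FPKM with LV-NC and 28.70, 26.08 and 29.68 FPKM with LV-SNORA28. The groups did not overlap. The log2 fold change was 0.31 (SE 0.08, adjusted p = 0.0697 in limma), which missed the threshold, and HIF1A was called in 0 of 16 alternatives. EPAS1, the other alpha subunit, had 9.72, 7.74 and 7.89 FPKM with LV-NC and 7.79, 8.16 and 8.77 FPKM with LV-SNORA28, with overlapping groups and a 95% interval of the log2 fold change from -0.26 to 0.21. ARNT, their partner, had 7.04, 6.50 and 6.23 FPKM with LV-NC and 8.43, 8.04 and 6.63 FPKM with LV-SNORA28, with an adjusted p of 0.260. The ARNT groups overlapped through LV-SNORA28 replicate 3 alone.

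Of the genes that destroy HIF alpha, EGLN1 had 7.33, 6.97 and 6.94 FPKM with LV-NC and 6.45, 7.27 and 7.96 FPKM with LV-SNORA28. VHL had 7.59, 7.49 and 7.96 FPKM with LV-NC and 7.28, 5.90 and 8.21 FPKM with LV-SNORA28. For both genes the LV-SNORA28 libraries spread to either side of LV-NC. EGLN3, the hydroxylase that is itself a strong HIF target, was at 0.35 to 0.62 FPKM and below the filter.

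The 12 other HIF targets included 9 that reached the filter. Of these, 0 were called in limma, against 8.91% of all genes tested, and 3 had an unadjusted p below 0.05. CA9, the carbonic anhydrase that is among the most sensitive HIF targets, was nearly silent in both groups. It had 0.00, 0.07 and 0.05 FPKM with LV-NC and 0.10, 0.34 and 0.11 FPKM with LV-SNORA28. PDK1, a kinase that inhibits pyruvate dehydrogenase, was at 0.64 to 0.71 FPKM in all libraries. ANKRD37, another HIF target, ranged from 0.46 to 1.12 FPKM. The groups of CA9 were apart and those of PDK1 and ANKRD37 overlapped, but at such levels no change could be judged from these files.

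The collagen prolyl hydroxylases P4HA1 and P4HA2, which both modify collagen in the endoplasmic reticulum, had log2 fold changes of opposite sign. P4HA1 had 12.15, 13.16 and 13.77 FPKM with LV-NC and 10.85, 10.04 and 10.84 FPKM with LV-SNORA28, a log2 fold change of -0.28 (SE 0.07). P4HA2 had 3.20, 2.94 and 3.38 FPKM with LV-NC and 3.94, 4.01 and 4.13 FPKM with LV-SNORA28, a log2 fold change of 0.27 (SE 0.07). Neither pair of groups overlapped, yet neither gene passed the test, with adjusted p-values of 0.0602 for P4HA1 and 0.0670 for P4HA2 in limma. P4HA1 was called in 4 of 16 alternatives, including 3 that recentre the libraries or remove a trend with GC content, where its adjusted p was 0.0316 to 0.0419.

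ANGPTL4, a secreted inhibitor of lipoprotein lipase, had 3.87, 3.34 and 3.36 FPKM with LV-NC and 4.29, 4.78 and 4.33 FPKM with LV-SNORA28. Its groups did not overlap, and its adjusted p was 0.0853 in limma. BNIP3, a mitochondrial receptor for autophagy, had 3.55, 3.66 and 3.62 FPKM with LV-NC and 3.80, 4.05 and 4.0 FPKM with LV-SNORA28. These groups were apart by a small margin, with a log2 fold change of 0.10 (adjusted p = 0.351 in limma). VEGFA, the angiogenic growth factor, had 4.52, 4.38 and 4.80 FPKM with LV-NC and 3.97, 4.74 and 3.87 FPKM with LV-SNORA28, and its groups overlapped. ADM, BNIP3L, NDRG1 and KDM3A had log2 fold changes from -0.01 to 0.07, with overlapping groups.

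Both regulators of fructose bisphosphate were expressed at a low level. PFKFB3, which makes the activator of phosphofructokinase, averaged 3.90 FPKM with LV-NC and 3.94 FPKM with LV-SNORA28, and PFKFB4 averaged 2.29 and 2.54 FPKM. Neither was called, and both overlapped between the groups.

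Apart from the enzymes, the other 24 genes included 20 that reached the filter, of which 0 were called higher (against 6.81% of all genes tested) and 2 lower, the glucose transporters (10%, against 2.10%), and 6 had an unadjusted p below 0.05. Their median log2 fold change was 0.05, against 0.11 for the enzymes and 0.09 for all genes tested. Across all 37 genes, groups did not overlap for 9 that were higher (24.3%, against 27.0% of all genes tested) and 4 that were lower (10.8%, against 8.16%). These shares lay near those of all genes tested.

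The share of each paralog in its family was also followed, since a ratio within a library does not depend on the scaling between libraries. Of 14 shares in 12 families, 6 did not overlap between the groups. Shares in other gene families were not computed, so this count has no background to be read against. The exact two-sided permutation p of each was 0.1, the smallest that 3 against 3 libraries allow, and the Benjamini-Hochberg adjusted value was 0.233, so none could pass. P4HA1 held 80.4% ± 1.3 (SD, n = 3) of the P4HA1 and P4HA2 sum in LV-NC and 72.4% ± 0.951 (SD, n = 3) with LV-SNORA28. PFKM was 22.4% ± 0.525 (SD, n = 3) and 26.5% ± 1.06 (SD, n = 3) of the phosphofructokinase sum, and PFKP was 60.2% ± 0.551 (SD, n = 3) and 56.2% ± 1.26 (SD, n = 3). PFKM thus had a larger and PFKP a smaller mean share in LV-SNORA28. Both are shares of the same sum, so they are not independent. HK1 held 60.7% ± 3.03 (SD, n = 3) of both hexokinases with LV-NC and 67.2% ± 1.71 (SD, n = 3) with LV-SNORA28. HIF1A held 72.8% ± 0.930 (SD, n = 3) of both alpha subunits with LV-NC and 77.3% ± 1.25 (SD, n = 3) with LV-SNORA28. ENO1 remained nearly the whole of enolase, at 98.6% and 98.0%. The share of LDHA in lactate dehydrogenase, 22.5% ± 0.906 (SD, n = 3) and 23.5% ± 2.81 (SD, n = 3), overlapped between the groups.

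**Figure D4:**
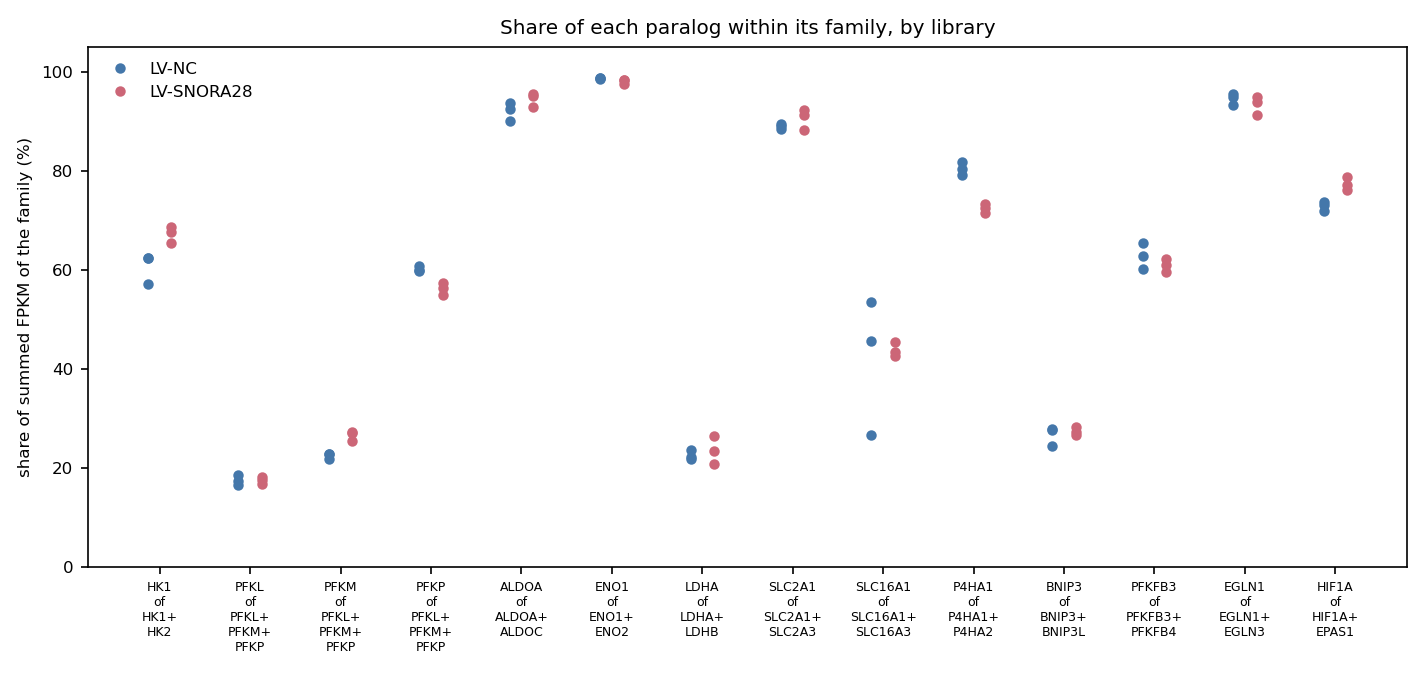
Share of each named gene in the summed FPKM of its family (percent), by library, with LV-NC at left and LV-SNORA28 at right of each position. The groups are apart for HK1, PFKM, PFKP, ENO1, P4HA1 and HIF1A, and overlap for the other 8 shares.

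Further genes of these pathways were taken from lists of 48 other HIF pathway genes and 54 other genes of sugar and pyruvate metabolism. Of the 27 other HIF targets that reached the filter, 6 were called higher (22.2%, against 6.81% of all genes tested) and 0 lower, 15 had an unadjusted p below 0.05, and the median log2 fold change was 0.20. The groups were apart and higher in LV-SNORA28 for 17 of the 27 (63.0%, against 27.0%). These counts include RIOX1 (called) and INSIG2 (not called), which averaged under 1 FPKM with LV-NC, passed the filter only through LV-SNORA28 and so had to differ. Without them, 5 of 25 were called higher (20%), 15 were apart and higher (60%) and the median log2 fold change was 0.19. INSIG2 was named after its values were seen. With median centring or with the GC trend removed, only ERO1A, TFRC and RIOX1 of the 6 remained called. Over all genes, 822 called higher became 390 and 367 under these settings. The lists were not a random draw, since they were chosen with earlier results of these data known, and nothing particular to them was tested.

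ERO1A, an oxidase of protein folding in the endoplasmic reticulum, had 4.25, 4.48 and 5.16 FPKM with LV-NC and 9.74, 10.14 and 11.60 FPKM with LV-SNORA28. All LV-SNORA28 libraries lay far above all LV-NC libraries. Limma gave a log2 fold change of 1.03 (SE 0.10, adjusted p = 0.00399), and it was called in 16 of 16 alternatives. TFRC, the transferrin receptor, had 12, 9.99 and 12.71 FPKM with LV-NC and 27.71, 26.81 and 19.91 FPKM with LV-SNORA28. Its log2 fold change was also 1.03 (SE 0.15, adjusted p = 0.0127 in limma), and its groups were far apart. TFRC was called in 14 of 16 alternatives, with an adjusted p of 0.0533 when LV-SNORA28 replicate 2 was left out and 0.0858 with the GC trend removed and the replicate number as a block. TFRC is known to respond to iron as well as to HIF.

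DDIT4, a brake on mTOR signalling, had 82.05, 85.99 and 84.80 FPKM with LV-NC and 97.88, 108.06 and 102.95 FPKM with LV-SNORA28, with a log2 fold change of 0.28 (adjusted p = 0.0365 in limma). The groups were apart. The call of DDIT4 was lost whichever library was left out, with an adjusted p of up to 0.123. RIOX1 and ANKZF1 were also called higher, with log2 fold changes of 0.79 and 0.36. ANKZF1 was called in 2 of 15 alternatives and in none that left out a library, and RIOX1 in 13 of 15, where the adjusted p rose to 0.0504 when LV-SNORA28 replicate 2 was left out and to 0.0626 with the GC trend removed and the replicate number as a block. RIOX1, a ribosomal oxygenase, averaged 0.880 FPKM with LV-NC and passed the filter only through its 2.23 FPKM with LV-SNORA28.

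Of 10 HIF regulators in the same list that reached the filter, CITED2 alone was called. This was 10% called lower, against 2.10% of all genes tested. CITED2, which competes with HIF for a coactivator and is itself a HIF target, had 18.99, 20.62 and 18.31 FPKM with LV-NC and 16.30, 15.18 and 15.33 FPKM with LV-SNORA28. All LV-SNORA28 libraries were below LV-NC. The fitted log2 fold change was -0.29 (adjusted p = 0.0488 in limma), and the call was lost whichever library was left out, with an adjusted p of up to 0.154.

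Of the 54 other genes of sugar and pyruvate metabolism, 32 reached the filter, 1 was called higher (3.12%, against 6.81% of all genes tested) and 0 lower (against 2.10%), 13 had an unadjusted p below 0.05, and the median log2 fold change was 0.06. The called gene was TALDO1, transaldolase of the pentose phosphate pathway, with 38.36, 39.37 and 40.40 FPKM with LV-NC and 48.16, 50.51 and 47.59 FPKM with LV-SNORA28. The groups were apart, with a log2 fold change of 0.30 (adjusted p = 0.0257 in limma), and the call was lost whichever library was left out, with an adjusted p of up to 0.101. Other genes in this list act in mitochondrial pyruvate import, in pyruvate dehydrogenase or in its regulation. The 10 of them that reached the filter had a median log2 fold change of 0.21, against 0.09 for all genes tested. Of these, 5 were apart and higher (50%, against 27.0% of all genes tested) and 0 were called, with 4 at an unadjusted p below 0.05. The 5 include a kinase of the PDK1 family, which inhibits pyruvate dehydrogenase. The 7 genes of the pentose phosphate pathway had a median log2 fold change of -0.05. Of those 7 genes, 2 were apart and higher (28.6%, against 27.0%) and 3 were apart and lower (42.9%, against 8.16%).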

How the data were processed

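Poly(A)-selected RNA of HCT116 cells was sequenced in 6 libraries, 3 infected with LV-NC and 3 with LV-SNORA28, grouped by their titles. The authors deposited 1 FPKM value per Ensembl gene and library. The submitters' processing notes name hg38, cutadapt 1.9, HISAT2 2.2.1, StringTie 2.1.6, DESeq2 and edgeR without their roles. The annotation release, the strand setting, filters and mapped totals are not given in the sources used here. FPKM is relative to all mapped fragments, so a change in abundant transcripts shifts other genes.

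Symbols came from GENCODE release 44 on GRCh38 for 60401 of 60612 genes. The genes that averaged 1 FPKM or more across all 6 libraries entered the fit as log2(FPKM + 1) with limma 3.58.1 in R 4.3.3 (lmFit and eBayes with trend). Two-sided p-values were adjusted over all 12076 genes by the Benjamini-Hochberg method. Fold changes on this scale understate those of low genes. Group means and SD are over 3 libraries. Shares were compared by exact permutation tests, and promoter motifs were searched in Python 3.11.15. The fit was tested on simulated data.

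The 41 genes and the other lists were chosen with earlier results of these data known. All 41 were named, with up to 10 genes by fold change called in each direction from the other lists, and 1 pseudogene per parent. The result of 1 gene of the other lists is not reported here. Alternatives were other scalings, filters, a pseudocount of 0.1, no trend, the GC trend removed, the replicate number as a block, the threshold of the study (a fold change above 1.5 and an unadjusted p below 0.05) and each library left out. The count test was not run, since the values are FPKM.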

Additional observations from a re-analysis of the deposited data

How the results depend on the processing

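Of 585 values of listed genes under 17 alternatives, 501 kept their direction and side of the threshold, 28 lost and 4 gained a call, and 52 turned sign, in 15 genes that were not called. SLC2A1 stayed called lower in all 16 alternative fits. The number of listed genes called higher, 2, all of them enzymes, became 1 without the trend, under quantile normalization, under scaling to the nuclear FPKM sum and with the replicate block, and 0 with median centring, without a filter, with the GC trend removed, and with the GC trend removed and the replicate block together. It was 0 to 1 with each library left out. The number called lower, 2, became 3 under quantile normalization, median centring and with the GC trend removed, which added P4HA1, 1 without a filter and 1 to 2 with each library left out. Of the further pathway genes, 7 called higher became 4 under quantile normalization, 3 with median centring, without a filter, with the block or with the GC trend removed, 1 with the GC trend removed and the block, and 1 to 4 with each library left out. The 1 called lower became 0 without the trend, without a filter, with the block (also with the GC trend removed) and under the threshold of the study, 2 under quantile normalization, median centring or a mean of at least 5 FPKM, 3 with the GC trend removed, and 0 to 1 with each library left out.

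All genes called, 1076, became 397 without a filter, 510 with the replicate block, 704 with the GC trend removed, 206 with both, 458 under the threshold of the study, and 279 (without LV-SNORA28 replicate 2) to 628 (without LV-NC replicate 1) with each library left out. Calls were higher in 76.4%, but in 54.6% of 826 under quantile normalization, 53.1% of 734 with median centring and 52.1% of 704 with the GC trend removed. Samples with the same number deviated with correlations of -0.04, 0.09 and 0.01. These values gave no sign of pairing by number, but they cannot exclude that such samples were handled together.

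Log2 fold changes that turned sign were as follows, most of them of genes with values near 0, but also SLC16A1, whose value was 0.32. Under quantile normalization it was -0.0706 for EGLN1, -0.0370 for ADM, -0.0236 for BNIP3L, -0.0310 for NDRG1, -0.0603 for GPI, -0.0504 for PFKL, -0.0263 for ALDOC and -0.0741 for PFKFB3. Under scaling to the nuclear sum it was -0.0016 for EGLN1, -0.0223 for GPI, -0.0172 for PGAM1 and -0.0002 for PFKFB3. With median centring it was -0.0646 for EGLN1, -0.0478 for ADM, -0.0164 for BNIP3L, -0.0246 for NDRG1, -0.0826 for GPI, -0.0532 for PFKL, -0.0218 for ALDOC, -0.0770 for PGAM1 and -0.0651 for PFKFB3. With the GC trend removed, with and without the replicate block, it was -0.0752 for EGLN1, -0.0966 for BNIP3L, -0.0021 for NDRG1, -0.0554 for GPI, -0.0516 for PGAM1 and -0.0286 for PFKFB3. With each library left out it ran from -0.0807 to 0.0666 for EPAS1, -0.0617 to 0.0447 for KDM3A, -0.116 to 0.536 for SLC16A1, -0.0209 to 0.0455 for GPI, -0.0683 to 0.0618 for PGAM1, -0.0898 to 0.0980 for PFKFB3, -0.0231 to 0.103 for ADM, -0.169 to 0.0163 for HK2, -0.136 to 0.135 for PKM, -0.199 to 0.0091 for VHL and -0.0414 to 0.0917 for EGLN1. The cause was not tested. The depth is unknown, so the precision of values near 1 FPKM, such as those of SLC2A3, rests on the spread of 3 libraries a group.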

Other observations

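Of 158 pseudogenes named after 18 of the listed genes, 5 reached the filter and 0 were called in limma, against 8.91% of all genes tested. GAPDHP1 had the highest level, with 21.5 FPKM on average in LV-NC and 17.4 FPKM with LV-SNORA28 and an adjusted p of 0.0783. The 65 pseudogenes of GAPDH together had 1.07% of the FPKM of GAPDH in LV-NC and 0.975% in LV-SNORA28. Those of TPI1 had 8.41% and 7.99% of their parent and those of LDHA had 5.68% and 5.18%, whereas the 2 of PGK1 had 0.0992% and 0.106%. The highest shares were in parents with low levels, 17.6% and 8.52% for BNIP3 and 11.1% and 21.9% for SLC2A3, with no pseudogene of either at the filter.

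ENSG00000269968, annotated on the opposite strand within GAPDH (GRCh38 chromosome 12, 6537794 to 6538370), had 1.00, 0.86 and 0.52 FPKM with LV-NC and 0.20, 13.50 and 0.14 FPKM with LV-SNORA28. LV-SNORA28 replicate 2 alone was high. Because the strand setting of the counting was not stated, its reads cannot be told apart from those of GAPDH. PDP1, the phosphatase that activates pyruvate dehydrogenase, had 151.41, 133.13 and 148.74 FPKM with LV-NC and 89.09, 86.35 and 199.87 FPKM with LV-SNORA28. LV-SNORA28 replicate 3 lay above LV-NC and the other two libraries of its group lay below it. Both genes were chosen after their values were seen.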
